A study of Mus musculus with 2 samples.

Results

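Wide domains of macroH2A1.1 were described in C2C12 cells, an established mouse muscle line whose myoblasts fuse into myotubes when serum is withdrawn. A wide domain was any listed region of enrichment broader than 20000 bp (mm9), leaving out those that start between 80 and 100 Mb on chromosome 8. This gave 319 domains among 50887 listed regions, or 0.627%. A further 88 regions of this width lie in the omitted segment of chromosome 8. The list rests on 1 library precipitated with an antibody for macroH2A1.1 and 1 input library without antibody, both from wild type cells. The source label calls them myoblasts, whereas the abbreviation DM in the sample descriptions and the account given by the study point to cells in differentiation medium, so they are called C2C12 cells here. With a single library on either side, none of the values carries a replicate error, and no comparison between sets of regions was tested. Width comes from the same reads as every density and enrichment below, so these are descriptions of domains that were chosen by their width.

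MacroH2A proteins are variants of histone H2A that carry a large globular macrodomain behind the histone fold. They are known for occupying broad stretches of chromatin rather than sharp peaks, for accumulating on the inactive X chromosome of female mammals, and for a role in keeping the state of differentiated cells stable. MacroH2A1.1 is the splice isoform whose macrodomain can bind ADP-ribose. Regions of this kind are called by counting reads in fixed windows and joining windows across short gaps, so a wide domain is a stretch in which enriched windows followed each other without a longer interruption.

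The domains had a median width of 25.2 kb, with quartiles at 22.2 and 31.3 kb, against a median of 3600 bp over the whole list. The widest reached 111.8 kb, 90 were wider than 30 kb and 11 were wider than 50 kb. Together they covered 9.21 Mb, which was 4.04% of the listed sequence. They held 258553 reads in ChIP and 75412 in input, or 5.29% and 4.76% of the reads in all listed regions. Thus these domains took a larger share of ChIP reads than of input reads, and a larger share of both than of the listed sequence. Their share of the regions themselves is smaller because they were chosen by width. A domain held a median of 673 ChIP reads (range 373 to 4303) and 200 input reads (101 to 1321), so that the counting error of a single domain is small beside that of a typical region.

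Just inside the limit, 25 domains of 20.2 to 20.4 kb had a median of 24.2 ChIP reads per kb (range 18.3 to 36.2), 7.48 input reads per kb (4.95 to 12.1) and an enrichment of 2.25-fold (1.26 to 3.28). Just outside it, 26 regions of 19.6 to 20.0 kb had 24.1 ChIP reads per kb (19.3 to 34.5), 7.21 input reads per kb (4.39 to 12.7) and 2.26-fold (1.20 to 4.38). The limit therefore falls within a continuous range of widths and densities.

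Enrichment is the ratio of ChIP to input reads after division by the factor of 1.45 that the list applies to all regions. It was 2.37-fold at the median of the wide domains, with quartiles at 2.04 and 2.86 and a range from 1.13 to 5.07. The 49801 narrower regions on the same chromosomes had a median of 2.22-fold with quartiles at 1.76 and 2.87. The median of the wide domains was thus close to that of the narrower regions, and the lower quartile was higher. In 244 domains (76.5%) the enrichment reached 2-fold, beside 61.3% of all listed regions. At 4-fold or more there were 6 domains (1.88%), beside 8.34% of all regions, and under 1.5-fold there were 18 (5.64%), beside 11.3%. The lower limit of the 95% exact interval, which covers counting error alone, was above 1 in all 319 domains, beside 85.4% of all regions, and above 2 in 163 domains, beside 12.2%. These intervals narrow with the number of reads and hence with width. The ratios themselves also scatter more where reads are few, and in regions of up to 2 kb the upper quartile was 4.01-fold. The quartiles and the shares at 4-fold and under 1.5-fold were not corrected for this.

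The widest domain lay at chr1:136901201-137013000 with 4303 reads in ChIP and 890 in input, a ratio of 3.33-fold (95% exact interval 3.10 to 3.59). The next, at chr9:61649401-61752600, spanned 103.2 kb with 3184 reads in ChIP and 781 in input, or 2.81-fold (2.60 to 3.04). A domain of 89.6 kb at chr6:100014801-100104400 had 3378 reads in ChIP and 557 in input, or 4.18-fold (3.82 to 4.58). The latter stood among the 5 widest and among the 5 most enriched domains, and its interval lies above those of the other 4 widest. The fourth by width was of another kind. It spanned 72.2 kb at chr15:78579001-78651200 with 2360 ChIP reads but also 1321 input reads, the most of any wide domain, which left 1.23-fold (1.15 to 1.32). The fifth, of 64.2 kb at chr9:60844601-60908800, had 2442 reads in ChIP and 584 in input, or 2.88-fold (2.63 to 3.16).

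Of the 5 most enriched domains, 4 were between 20.8 and 28.0 kb wide. A domain of 20.8 kb at chr13:109470401-109491200 had 896 reads in ChIP and 122 in input, or 5.07-fold (4.19 to 6.17). A domain of 25.2 kb at chr17:81283201-81308400 had 1014 reads in ChIP and 142 in input, or 4.93-fold (4.13 to 5.91). Both exceeded the narrower regions within 100 kb, which reached 2.30-fold and 2.34-fold when their reads were pooled. After the domain on chromosome 6 named above came a domain of 28.0 kb at chr3:96824401-96852400, with 982 reads in ChIP and 163 in input, or 4.16-fold (3.52 to 4.94). One of 26.8 kb at chr2:92887201-92914000 had 928 reads in ChIP and 155 in input, or 4.13-fold (3.48 to 4.93). The intervals of these 5 domains overlap in part, so their order is uncertain. Their input of 5.63 to 6.22 reads per kb lay below the median of wide domains, which was 7.58.

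The lowest enrichment went with a high input. A domain of 39.2 kb at chr1:90122001-90161200 had 1306 reads in ChIP and 797 in input, or 1.13-fold (1.03 to 1.24). Its 20.3 input reads per kb were the highest among the wide domains, while narrower regions within 100 kb of it had 5.64. A domain of 33.2 kb at chr4:151508601-151541800 had 890 reads in ChIP and 526 in input, or 1.17-fold (1.05 to 1.30). A domain of 22.8 kb at chr18:61069001-61091800 had 522 and 306, or 1.18-fold (1.02 to 1.36). A domain of 26.6 kb at chr15:10949001-10975600 had 628 and 359, or 1.21-fold (1.06 to 1.38). The remaining one of these 5 is the domain of 72.2 kb described above. Each of these intervals excluded 1 by little, and the ChIP density of the 5, from 22.9 to 33.3 reads per kb, was within the range of the other domains.

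The domain with the third highest input, of 26.0 kb at chr15:97806401-97832400, had 16.7 input reads per kb and 1.38-fold (1.23 to 1.55). At the other end, the domains with the lowest input had 4.33 reads per kb (chr1:133695201-133719200, 553 ChIP and 104 input reads), 4.84 (chr18:4763801-4789000, 631 and 122) and 4.95 (chr14:25568001-25588400, 477 and 101). Their enrichments were 3.67-fold (2.97 to 4.57), 3.57-fold (2.93 to 4.37) and 3.26-fold (2.62 to 4.08). Input is the denominator of the enrichment, so the 2 values are not independent of each other.

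**Figure D1:**
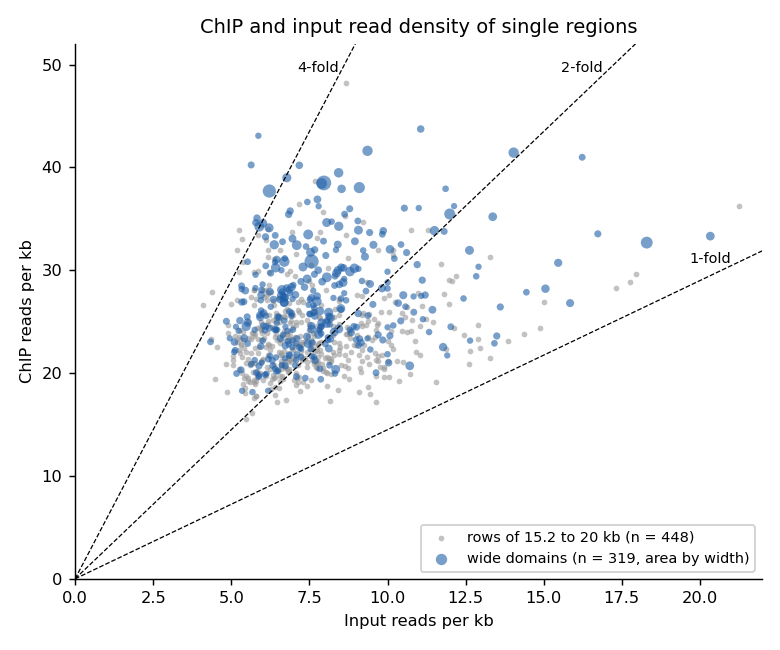
Input reads per kb (x axis) and ChIP reads per kb (y axis) of the 319 wide domains (blue, point area by width) and of the 448 regions of 15.2 to 20 kb (grey); dashed lines mark an enrichment of 1-fold, 2-fold and 4-fold over scaled input. Wide domains have quartiles at 6.45 and 9.06 input reads per kb and at 23.4 and 30.3 ChIP reads per kb, and a tail reaches 20.3 input reads per kb close to the line of 1-fold.

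It was then asked how read density changed with width. Wide domains had a median of 26.6 ChIP reads per kb (quartiles 23.4 and 30.3, range 18.2 to 43.7), against 20.4 in the narrower regions (18.2 and 23.2), a ratio of 1.30. Input rose as well, with a median of 7.58 reads per kb (6.45 and 9.06, range 4.33 to 20.3) against 6.33 (5.0 and 7.86), a ratio of 1.20. ChIP reads in excess of scaled input were 15.4 per kb in wide domains and 11.08 in narrower regions. Both libraries were thus denser in wide domains, and ChIP more so. In all, 244 domains (76.5%) exceeded the upper quartile of ChIP density of the narrower regions on their chromosome, beside 25.2% of all regions outside the segment, and 130 (40.8%) exceeded the upper quartile of input density, beside 24.9%.

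The density of ChIP reads did not follow width in one direction. Regions of up to 2 kb had a median of 25 ChIP reads per kb, those of 2.2 to 5 kb had 19.6, and from there the median went through 20.0, 21.8 and 23.1 up to 20 kb. In wide domains it was 25.4 at 20.2 to 30 kb (229 domains), 28.2 at 30.2 to 50 kb (79) and 37.7 above 50 kb (11). Input reads per kb went from 6.11 in the narrowest class to 7.34, 7.91 and 7.96 in the 3 classes of wide domains. The median enrichment fell from 2.84-fold in the narrowest class to 2.07-fold at 5.2 to 10 kb, and was 2.33-fold, 2.46-fold and 3.07-fold in the wide classes. All regions had passed the threshold of the caller, and its effect on density was not corrected for. Across the 319 domains, Spearman's rho of width was 0.354 with ChIP reads per kb, 0.139 with input reads per kb and 0.128 with enrichment, where all values come from the same pair of libraries and the domains are not replicates.

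**Figure D2:**
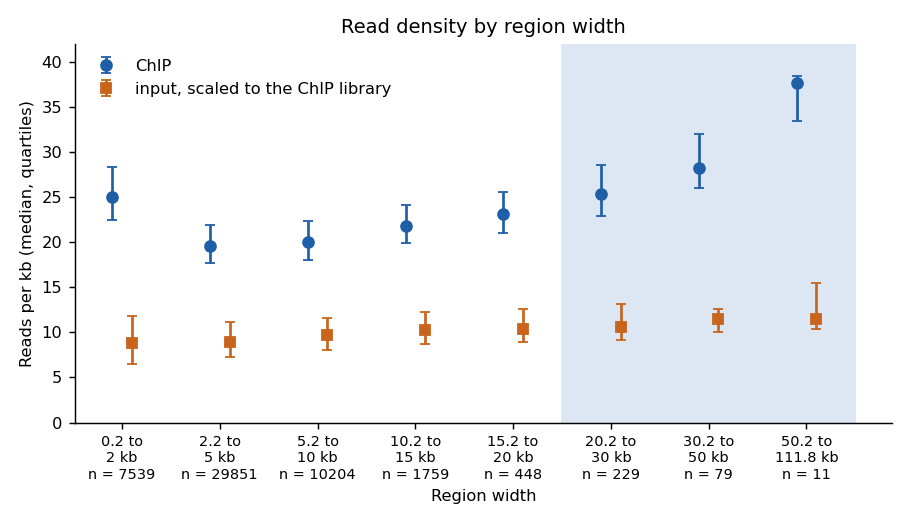
Reads per kb (y axis) in 8 classes of region width (x axis, with the number of regions) for ChIP (blue circles) and for input multiplied by the library factor of 1.45 (orange squares); points are medians, bars the quartiles over regions, and the shaded classes are the wide domains. ChIP density is lowest at 19.6 in regions of 2.2 to 5 kb and highest at 37.7 in domains above 50 kb, whereas input changes less.

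Since input density sets what can be called, domains were also read at an ordinary input. In 185 domains (58.0%) the input reads per kb lay within the quartiles of narrower regions of the same chromosome, and in 4 they lay below. These 185 had a median of 25.6 ChIP reads per kb against 20.0 in narrower regions held to the same range of input, a ratio of 1.28, with 6.69 and 6.30 input reads per kb. The ratio of ChIP density was nearly as large as over all domains. The 2 sets still differed in width, and the part of input in ChIP density was not tested. The median enrichment of the 185 domains was 2.66-fold against 2.22-fold, and none of them was below 1.72-fold. The 130 domains with higher input had 28.2 ChIP reads per kb and a median enrichment of 2.04-fold. Split at quartiles of input, the domains had median enrichments of 3.01-fold, 2.58-fold, 2.30-fold and 1.75-fold from the lowest to the highest. All 18 domains under 1.5-fold were in the set with the highest input. Input is the denominator of the enrichment, so such an order is in part built into the split. As no domain had fewer than 18.2 ChIP reads per kb, a value under 1.5-fold was out of reach at low input.

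Domains that stood out in input from their own surroundings were few. In 27 of 317 domains with narrower regions within 100 kb (8.52%), input reads per kb were at least 1.5 times those of these regions, beside 7.54% of all regions outside the segment, a share near the background. They lay on 12 chromosomes, 8 of them on chromosome 15, and their median input was 12.4 reads per kb against 7.06 around them. Their median enrichment was 1.56-fold, against 2.43-fold in the other 290 domains, and 11 of the 18 domains under 1.5-fold were among them. Here too the domains were chosen by the denominator of the enrichment. What raised the input there was not tested.

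Wide domains were then compared with their own neighbourhood. ChIP density was above that of the narrower regions within 100 kb, with their reads pooled, in 243 of 317 domains (76.7%), beside 48.2% of all regions outside the segment. Input density was above it in 201 domains (63.4%), beside 45.9%, and enrichment in 178 (56.2%), beside 53.1%. At the median, ChIP density was 1.11 times and input density 1.07 times that of the surrounding regions. For the 448 regions of 15.2 to 20 kb these values were 1.03 and 1.02, with 57.6% above their surroundings in ChIP density. For enrichment the share was thus near that of all regions. The narrower regions around wide domains were themselves dense, with a median of 23.0 ChIP reads per kb, against 20.6 around narrower regions. Around the regions of 15.2 to 20 kb this median was 22.3, so dense surroundings were not particular to wide domains.

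Neighbours were close. The nearest listed region was at a median of 800 bp, the smallest distance in the list, against 2400 bp for narrower regions and 1000 bp for those of 15.2 to 20 kb. It was at 800 or 1000 bp in 210 domains (65.8%), beside 29.3% of all regions outside the segment, and within 5 kb in 303 (94.98%), against 67.5% of narrower regions. The regions of 15.2 to 20 kb were nearly as close to their neighbours, with 56.9% at 800 or 1000 bp and 93.3% within 5 kb. The median distance was shorter for wide domains on each of the 20 chromosomes. In the 100 kb on each side, listed regions covered a median of 50.2% of the sequence (quartiles 34.0 and 64.8), against 24.0% (12.1 and 38.4) around narrower regions. The number of listed regions there had a median of 15 against 12. Around regions of 15.2 to 20 kb the covered median was 44.4%, with a median of 16 listed regions. Most wide domains thus ended close to another listed region, in sequence of which about as much was listed as not.

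Around wide domains the covered share averaged 57.8% in the first 10 kb and was highest between 10 and 20 kb. Further out it mostly fell with distance. It averaged 60.5% between 10 and 20 kb, 39.5% between 90 and 100 kb and 23.1% between 450 and 500 kb. Around regions of 15.2 to 20 kb it was 52.6%, 37.8% and 21.7%, and around all narrower regions 31.3%, 22.9% and 15.6%. From 200 kb outwards wide domains and regions of 15.2 to 20 kb had much the same surroundings.

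**Figure D3:**
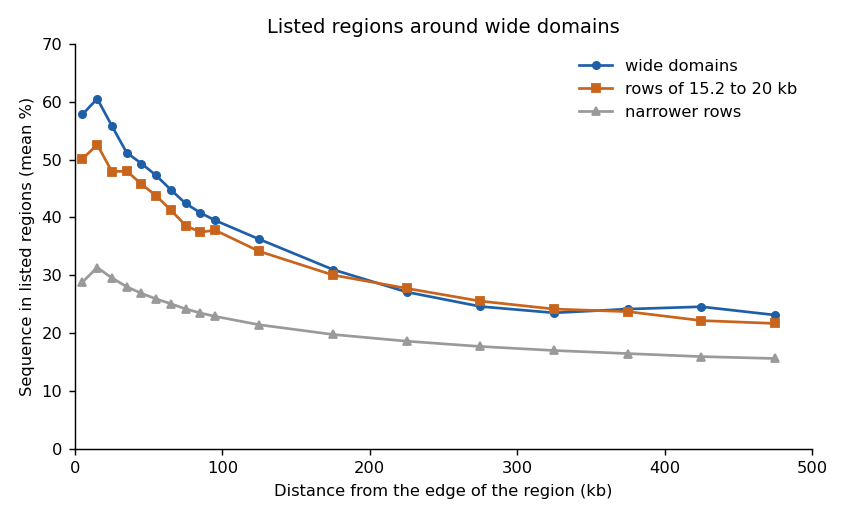
Mean share of sequence in listed regions (y axis, %) against distance from the edge of a region (x axis, kb, both sides together) for the 319 wide domains (blue), the 448 regions of 15.2 to 20 kb (orange) and the 49801 narrower regions (grey). The share around wide domains falls from 60.5% at 10 to 20 kb to 23.1% at 450 to 500 kb and stays above that of narrower regions, which goes from 31.3% to 15.6%.

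Exceptions were the 2 domains whose nearest region was more than 50 kb away, looked up after their values were seen. One is the domain of lowest enrichment on chromosome 1, with 138.2 kb before and 54.4 kb after it. The other spanned 32.6 kb at chr4:128297201-128329800, and its nearest listed region was 166.2 kb away. It had 829 reads in ChIP and 193 in input, or 2.96-fold (2.53 to 3.48), at 5.92 input reads per kb. These 2 isolated domains therefore differed in input and in enrichment, with intervals that do not overlap.

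Many wide domains also lay close to each other. The median distance from a domain to the next wide domain was 126.8 kb, with quartiles at 22.2 and 1590.2 kb. When domains within 1 Mb of each other were put together, 220 of 319 (69.0%) fell into groups of 2 or more, while 99 stood alone. There were 40 pairs, 22 groups of 3 or 4 and 7 groups of 6 or more, which held 66 domains. Other sets of regions were not grouped in this way. Distances also shorten where domains are many, as on chromosome 15, with 55.1 per 100 Mb against a median of 10.9 over chromosomes. Closeness beyond what these numbers bring was not tested. In 28 domains the next wide domain was within 1600 bp, so that a single short interruption separated them. The longest such row was at chr15:78419801-78651200, where 4 domains followed each other over 231.4 kb. Joining all listed regions across gaps of up to 1600 bp gave runs of up to 347.8 kb around wide domains. That longest run, at chr6:99823601-100171400, was made of 16 regions with 11074 reads in ChIP and 2290 in input, an enrichment of 3.34-fold.

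The group with the most domains was at chr9:60821201-61752600. Its 13 domains filled 60.7% of 931.4 kb, and together with 38 narrower regions 85.7% of this stretch was listed. The domains held 17706 reads in ChIP and 4240 in input, and their enrichments went from 2.00 to 3.97-fold with a median of 2.87-fold. The narrower regions between them had a median of 2.91-fold. Wide and narrow regions were thus alike in enrichment within this block, and the domains differed in ChIP density by 28.0 against 25.8 reads per kb at the median.

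On chromosome 5, 12 domains lay between 110904801 and 112586600 and filled 24.9% of 1681.8 kb, with 12610 reads in ChIP and 3309 in input. Their median enrichment was 2.61-fold (range 1.90 to 3.51), against 2.62-fold in the 53 narrower regions between them. On chromosome 6, 11 domains lay between 99761601 and 101468000 and filled 24.6% of 1706.4 kb, with 13139 reads in ChIP and 3109 in input. The median enrichment was 2.54-fold (2.12 to 4.18), against 2.49-fold in 58 narrower regions. In both groups, as on chromosome 9, input density of the domains was even, between 5.95 and 9.36 reads per kb over the 3 groups, and no domain was under 1.5-fold.

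**Figure D4:**
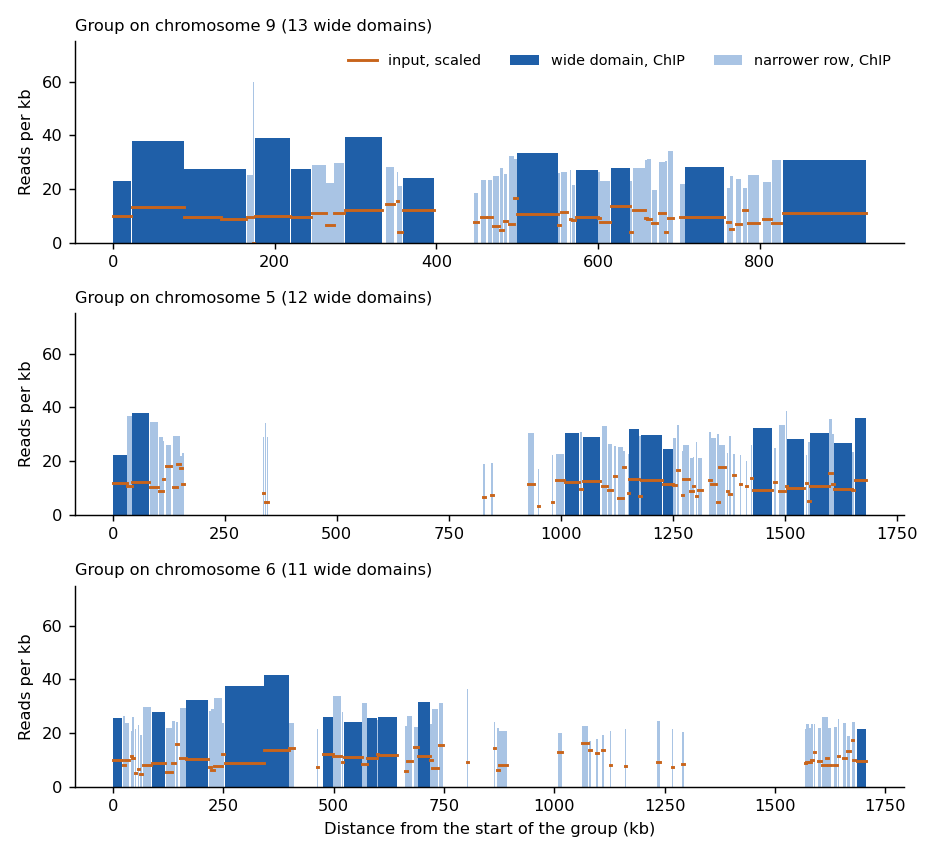
Reads per kb (y axis) of every listed region in the 3 groups with the most wide domains, along the distance from the start of the group (x axis, kb); dark blue bars are wide domains and light blue bars narrower regions (ChIP), with bar width to scale, and orange lines are input multiplied by the library factor of 1.45. The 13, 12 and 11 wide domains stand between 21.4 and 41.6 ChIP reads per kb, above scaled input of 8.63 to 13.6.

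Other groups were less even. On chromosome 15, 8 domains between 78008201 and 78705200 filled 50.0% of 697.0 kb, with 8.96 to 18.3 input reads per kb and enrichments from 1.23 to 2.53-fold. A second group of 8 on this chromosome, between 84217601 and 85380400, had 7.84 to 15.5 input reads per kb and 1.37 to 2.29-fold. On chromosome 1, 8 domains between 90122001 and 92374400 had enrichments from 1.13 to 3.25-fold, the lowest being the isolated domain of high input named above.

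The domains were spread unequally over chromosomes. Chromosome 15 held 57 (17.9%), followed by chromosome 1 with 29 and chromosomes 5, 6 and 11 with 27 each. At the other end, 9 chromosomes had 9 domains or fewer and 51 in all. Chromosomes 7 and X had 1 each. Per 1000 listed regions there were 15.3 wide domains on chromosome 15, 10.9 on chromosome 5, 10.5 on chromosome 6, 0.907 on chromosome 7 and 0.543 on chromosome X, against 6.36 over all regions outside the segment. The order thus did not merely follow the number of regions. Outside its segment, chromosome 8 had 9 domains, or 5.07 per 1000 regions.

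The single domain of chromosome X extended over 20.6 kb from 96441801 to 96462400, with 446 reads in ChIP and 156 in input, or 1.97-fold (1.64 to 2.38). That of chromosome 7 extended over 23.0 kb from 35483001 to 35506000, with 526 and 127, or 2.86-fold (2.35 to 3.50). Both were close to the lower limit of width, and both had fewer ChIP reads per kb (21.7 and 22.9) than the median domain.

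Input density was extreme on the chromosomes with the most and the fewest domains. In narrower regions its median was highest on chromosome 15, at 7.78 reads per kb, and lowest on chromosomes 7 and X, at 4.83 and 5.83. Other chromosomes are given as examples only. Chromosome 9 had the next lowest input, at 6.0 reads per kb, and 20 domains, or 7.1 per 1000 listed regions. Chromosomes 1, 6 and 13 had an input of 6.25 with 29, 27 and 15 domains, or 6.7, 10.5 and 4.495 per 1000. Chromosomes 10 and 19 had an input of 6.43 and 6.36 with 7 and 4 domains, or 2.23 and 2.98 per 1000. Chromosomes 5 and 17 had an input of 6.5 and 6.67 with 27 and 14 domains, or 10.9 and 7.62 per 1000. Chromosomes 12 and 14 both had an input of 6.15, with 6 and 5 domains, or 3.21 and 2.62 per 1000. On chromosome 15 the median domain had 9.28 input reads per kb and was enriched 1.99-fold. Of these 57, 50 were above the median input of all wide domains, and 27 (47.4%) reached 2-fold, near the 44.1% of all listed regions on this chromosome. Elsewhere 217 of 262 (82.8%) did, beside 63.3% of all listed regions there outside the segment. Among regions of 2-fold or more, wide domains made up 16.4 per 1000 on chromosome 15, 15.4 on chromosome 6 and 15.0 on chromosome 5, so the lead of chromosome 15 was small there, while chromosome 7 had 1.11 and chromosome X had none. The part of input density in the number of domains was not tested.

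The comparison of densities was repeated within each chromosome. ChIP reads per kb were higher in wide domains than in narrower regions on all 20 chromosomes, with ratios of medians from 1.101 on chromosome 12 to 1.47 on chromosome 2. Input reads per kb were higher on 18, with ratios from 0.975 on chromosome 19 to 1.30 on chromosome X. The next highest ratio of input was 1.28 on chromosome 2. Chromosomes 7 and X enter all these counts with 1 domain each. Enrichment was higher on 17 of 20, and lower on chromosomes 2, 11 and X. On chromosomes 10 and 19, where wide domains had no more input than narrower regions, their median enrichments were 3.13-fold and 3.17-fold against 2.20-fold and 2.21-fold, from 7 and 4 domains.

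**Figure D5:**
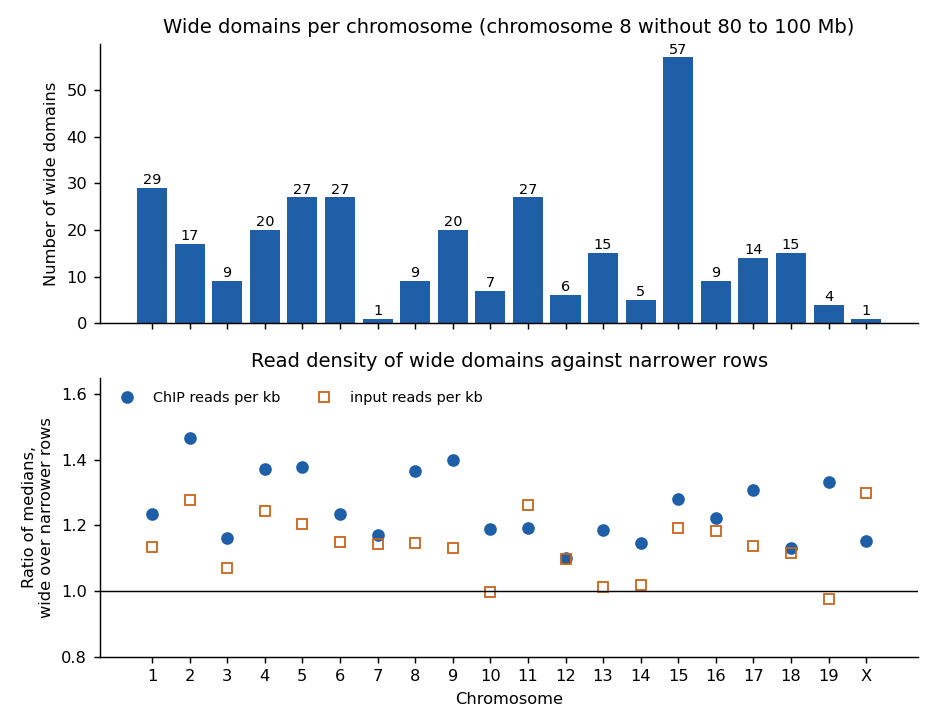
Upper panel, number of wide domains (y axis) on each chromosome (x axis); lower panel, ratio of the median of wide domains to that of narrower regions for ChIP reads per kb (blue circles) and input reads per kb (orange squares), with a line at 1. Chromosome 15 has 57 domains and chromosomes 7 and X have 1 each, and every blue point lies above 1.

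Along the chromosomes, whose centromere lies at the low-numbered end in the mouse, wide domains were few in the first part. When the span of listed regions was cut into 5 equal parts, 31 domains (9.72%) fell into the first, then 52, 71, 89 and 76. For narrower regions the first part held 15.7%, and the others 20.8%, 20.4%, 19.3% and 23.7%. The fourth part thus held 27.9% of wide domains and the last 23.8%. Domains were pooled over chromosomes here, so large groups weigh on these shares. The group of 13 on chromosome 9 lies in the third part, and those of 12 and 11 on chromosomes 5 and 6 lie in the fourth. Whether single chromosomes share this order was not examined. The first 10 Mb held 12 domains (3.76%, against 6.77% of narrower regions) and the last 10 Mb held 27 (8.46%, against 9.76%).

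None of the 5 amplicons that the study examined by ChIP-qPCR lay in a wide domain. Wide domains cover only 9.21 Mb, or 4.04% of the listed sequence, so for so few loci this says little about macroH2A1.1 there. Whether the amplicons lay in narrower listed regions is not given here. The closest domain to the amplicon of Itga11, which encodes integrin alpha 11, was the domain of 103.2 kb on chromosome 9 described above, 772 kb away at the end of the largest group. Those for Col1a1, the gene of a collagen chain, of which there are 3, were 646 to 698 kb away from a domain of 21.4 kb at chr11:95482601-95504000, with 455 reads in ChIP, 123 in input and 2.55-fold (2.09 to 3.14). For Fn1, the gene of fibronectin, the closest domain was 7.75 Mb away, at chr1:63941201-63972800, with 2.49-fold (2.16 to 2.89). Genes inside the wide domains were not analysed here, because the annotation at hand was of another build than the list.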

How the data were processed

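C2C12 chromatin was sequenced as 1 macroH2A1.1 ChIP library and 1 input library. Per the labels, reads were aligned to mm9 with Bowtie2 2.0.6. The study names SICER for calling regions against input, and the name of the deposited list points to epic, which re-implements it. The window and gap sizes stated by the study are larger than the steps of 200 bp and the smallest gap of 800 bp in the deposited list. The settings behind this list are therefore not known, and widths, counts and gaps depend on them. The list holds, as deposited, counts of ChIP and input reads per region, not scaled for library size. The log2 fold change made by the authors' caller (log2 of ChIP over input after 1 library factor) was used for enrichment, and the FDR (an adjusted p-value deposited by the authors) only as a filter in an alternative. The deposited score is 100 times the log2 value and was not used. Positions were read as 0-based, with an inclusive end, and are given 1-based; the deposited start and end were used in no other unit.

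Reads per kb, neighbours, groups and exact (Clopper-Pearson) 95% intervals were computed with Python 3.11.15, pandas 2.3.3 and SciPy 1.17.1. The interval function was tested on simulated counts, and the neighbour functions against a direct computation on listed regions. Intervals cover counting error only, since PCR reads are not independent molecules. Library totals are unknown. Narrower regions were those of up to 20000 bp outside the segment of chromosome 8. Named regions followed a rule: the 5 widest, the 5 most and 5 least enriched, the 3 with most and with least input, the 3 largest groups and the domain closest to each amplicon. The single domains of chromosomes 7 and X, the other groups of 8 and the isolated domains were added after their values were seen. Domains and lists were chosen with earlier results of these data known. The genome at hand was GRCm38, so sequences, gene overlaps and the planned gene lists were not analysed here.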

Additional observations from a re-analysis of the deposited data

How the results depend on the processing

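No paired analysis was possible because ChIP and input are 1 library each, and neither could be left out. Of 63 values recomputed under alternatives, 33 stayed within the interval of the reported value or within 1.5 times the count, and 30 moved. These intervals come from regions or reads of the same pair of libraries. They serve as a measure for the size of a shift and hold no replicate error. Only the ratios of ChIP and input density could change direction, by falling below 1, and none did. The number of domains was 767 at a width limit of 15000 bp, 90 at 30000 bp, 1421 after joining within 1600 bp and 185 at an input within the quartiles of the chromosome. Their share of listed sequence was 7.41% at 15000 bp, 1.66% at 30000 bp, 4.20% without chromosome 8, 5.65% with the segment of chromosome 8 kept, 4.18% at an FDR of 0.01, 5.39% at 2-fold or more and 3.60% without chromosome 15. The ratio of ChIP density was 1.19 at 15000 bp, 1.42 at 30000 bp, 1.34 with pooled reads, 1.21 against regions of over 10 to 20 kb, 1.25 against narrower regions within 1 Mb and 1.23 as the median over chromosomes. That of input density was 1.29 with the segment kept, 1.29 at 2-fold or more, 1.07 against regions of over 10 to 20 kb, 1.14 as the median over chromosomes and 1.14 without chromosome 15. The median enrichment was 2.26-fold at 15000 bp, 2.51-fold at 30000 bp, 2.21-fold with the segment kept, 2.59-fold at 2-fold or more, 2.66-fold at an input within the quartiles and 2.46-fold without chromosome 15. The 3 chromosomes with most domains held 45.6% of them at 30000 bp and 45.0% with the segment kept, against 35.4%. Width limits and filters change which regions are counted; for the other shifts the cause was not tested. The alternatives on input quartiles and chromosome 15 were chosen after seeing the data. Gene-based comparisons were not run. With 1 ChIP library, a further preparation could place domain edges elsewhere, and a domain just under the width limit differs from one just above it by a single window.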
